A study of Mus musculus with 6 samples.

Results

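The genes described here are Cxcl9, Cxcl10 and Cxcl11, which encode the 3 ligands of the chemokine receptor CXCR3, together with Cxcr3 itself. They were taken from the array rows whose platform annotation names exactly 1 of these symbols, and each gene had 1 such row, so 4 of 19938 measured genes are members. The arrays measured RNA of CD11b+Gr-1+ cells, which were isolated by sorting from liver. The mice were of the C57BL/6 strain, and in both groups they bore tumours of EL4, a T lymphoma line. The sorted cells are called MDSC (myeloid-derived suppressor cells) in the labels, and they mix immature granulocytic with monocytic cells. One group of 3 arrays followed injection of concanavalin A (Con A), a lectin from jack beans whose injection activates T cells and causes acute hepatitis, and the other 3 followed injection of PBS, which the titles call untreated. Cells were collected 3 hours after injection in both groups. The dose of Con A is given as 12.5 mg/kg in one label and 12.5 ug/kg in another, and neither the age nor the sex of the mice is given in the sources used here. The design gives 3 mice per group but does not tie each array to 1 mouse, so p-values reflect only how far these samples scatter, and some of that scatter may be technical.

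CXCL9, CXCL10 and CXCL11 are small secreted proteins that draw activated T cells and NK cells, which carry CXCR3, into inflamed tissue. Their genes are textbook targets of interferon: interferons act on them through JAK-STAT signalling and IRF factors, and TNF adds NF-kB. In liver inflammation hepatocytes, sinusoidal endothelial cells and macrophages are all known sources. In C57BL/6 mice the Cxcl11 gene is known to carry a frameshift that prevents a working CXCL11 protein, and RefSeq lists it as a transcribed pseudogene in the GRCm38.p6 assembly, so the Cxcl11 values below are RNA values.

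The upstream sequences of the members are shown because their known inducers act there. RefSeq promoter entries of GRCm38.p6 matched 3 of the 4 members, Cxcl9, Cxcl10 and Cxcr3. The 250 bases before each annotated start are given 5′ to 3′ on the gene's own strand, which is the minus strand for all 3, with motif matches in capitals. The windows are chr5:92328080-92328329 for Cxcl9, chr5:92348890-92349139 for Cxcl10 and chrX:101734148-101734397 for Cxcr3.
Cxcl9: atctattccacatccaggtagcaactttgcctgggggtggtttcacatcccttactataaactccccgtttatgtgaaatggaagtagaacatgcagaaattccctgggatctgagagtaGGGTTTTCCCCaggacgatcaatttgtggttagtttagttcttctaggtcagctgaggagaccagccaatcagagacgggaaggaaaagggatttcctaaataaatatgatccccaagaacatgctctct
Cxcl10: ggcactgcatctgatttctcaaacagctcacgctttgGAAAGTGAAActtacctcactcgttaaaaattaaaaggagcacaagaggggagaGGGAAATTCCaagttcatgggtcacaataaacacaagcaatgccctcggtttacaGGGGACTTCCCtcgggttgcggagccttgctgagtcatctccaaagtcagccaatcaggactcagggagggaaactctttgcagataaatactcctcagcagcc
Cxcr3: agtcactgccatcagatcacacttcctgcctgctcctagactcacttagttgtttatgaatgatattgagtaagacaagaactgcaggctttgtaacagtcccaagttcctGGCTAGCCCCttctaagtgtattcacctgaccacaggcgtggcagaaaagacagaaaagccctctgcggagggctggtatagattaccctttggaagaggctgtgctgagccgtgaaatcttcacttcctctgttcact
Both strands were searched for the interferon-stimulated response element ISRE (GAAA, any 2 bases, GAAA), the STAT site GAS (TTCNNNGAA) and a loose NF-kB site (GGG, any 5 bases, CC), and overlapping matches were kept. An ISRE match stood in the Cxcl10 window at positions -213 to -204 from the start, and 2.98% of the 32851 promoter windows of this length in the table hold one. NF-kB matches stood at -159 to -150 and, overlapping each other, between -104 and -94 in Cxcl10, between -130 and -120 in Cxcl9, and at -139 to -130 in Cxcr3, where the pattern is found in 45.8% of all windows. GAS, found in 7.02% of all windows, had no match in the 3 windows, which says only that these letters do not stand there.

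All 3 ligand genes rose after Con A, by 8.81-fold to 10.96-fold, while the receptor gene did not pass the test. Values are log2 expression values after the authors' normalization, differences are Con A minus PBS, and adjusted p-values come from limma with Benjamini-Hochberg adjustment over all 19938 genes. At an adjusted p below 0.05, 4.59% of all tested genes were higher after Con A and 11.8% differed in either direction. The difference was at least 2-fold upward in 1.2% of them.

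**Figure D1:**
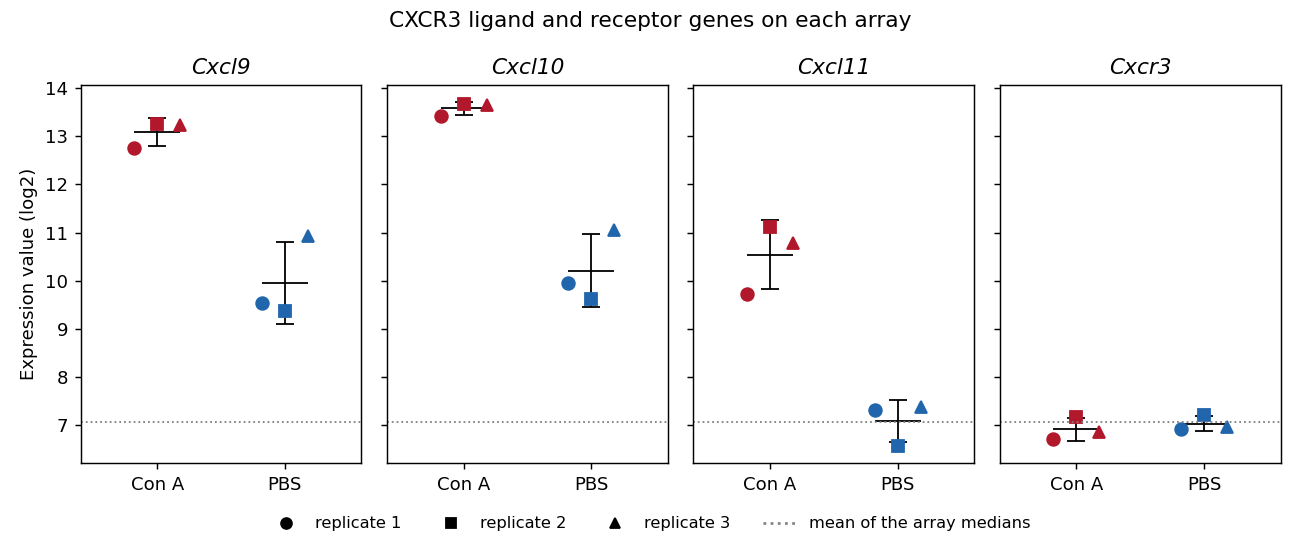
Log2 expression of Cxcl9, Cxcl10, Cxcl11 and Cxcr3 on each array, Con A left and PBS right in each panel; points are arrays, bars are the mean and SD of 3 arrays, and the dotted line is the mean of the 6 array medians. The ligands stand apart between the groups, with PBS replicate 3 the highest PBS array for each, while the Cxcr3 values of the groups overlap.

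Cxcl9 (probe set 10531407), the ligand most closely tied to interferon-gamma, stood at 12.76, 13.26 and 13.24 in Con A replicates 1, 2 and 3, against 9.54, 9.38 and 10.93 in PBS replicates 1, 2 and 3. The lowest Con A array lay 1.83 above the highest PBS array. The mean was 13.09 ± 0.28 after Con A and 9.95 ± 0.85 after PBS (SD, n = 3 each), a rise of 3.14 (95% interval 2.24 to 4.04, limma adjusted p = 0.00284).

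Cxcl10 (probe set 10531415), which type I interferon and TNF also induce, stood at 13.43, 13.66 and 13.64 in the Con A arrays, against 9.96, 9.61 and 11.06 in the PBS arrays. Its groups lay 2.37 apart at their nearest values. The mean was 13.58 ± 0.13 after Con A and 10.21 ± 0.76 after PBS, a rise of 3.37 (95% interval 2.59 to 4.14, limma adjusted p = 0.00148). The brightest row of each array stood at 14.24 or above, so the Con A values of Cxcl10 were near the upper end, where RMA compresses differences.

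Cxcl11 (probe set 10531420), whose protein also binds the scavenging receptor ACKR3, stood at 9.73, 11.11 and 10.79 in the Con A arrays, against 7.32, 6.58 and 7.37 in the PBS arrays. The PBS values lay around the array medians of 7.05 to 7.08, and the Con A values lay well above them. The mean was 10.54 ± 0.72 after Con A and 7.09 ± 0.45 after PBS, a rise of 3.45 (95% interval 2.60 to 4.31, limma adjusted p = 0.00172). Its nearest values were 2.36 apart.

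In 14.4% of all tested genes every Con A array lay above every PBS array, and in 29.9% the groups did not overlap in either direction; all 3 ligands belonged to the first set. A separation of Con A above PBS at least as wide as that of Cxcl9 was found in 20 genes. For Cxcl10 this count was 8 and for Cxcl11 it was 10, each including the gene itself. Separations in the other direction were not counted. In RNA from a bulk sort, a larger share of cells that express a gene and more RNA per cell cannot be told apart. With 1 array left out the folds ranged from 7.23 to 12.4 for Cxcl9, from 8.38 to 13.9 for Cxcl10 and from 8.99 to 14.5 for Cxcl11, and all 3 genes passed the test each time (limma adjusted p up to 0.0214, 0.0124 and 0.0128). An ordinary linear model, which takes each gene's spread from its own 6 values, gave adjusted p = 0.0679 for Cxcl9, 0.0492 for Cxcl10 and 0.0541 for Cxcl11.

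The spread within each group had the same order for the 3 ligands. PBS replicate 3 was the highest PBS array and PBS replicate 2 the lowest, while Con A replicate 2 was the highest Con A array and Con A replicate 1 the lowest. Among all tested genes 3.95% had both of these orders. The orders were read from the ligands themselves, and some of them rest on small gaps. Con A replicates 2 and 3 stood at 13.263 and 13.243 for Cxcl9 and at 13.662 and 13.645 for Cxcl10. PBS replicates 3 and 1 stood at 7.373 and 7.318 for Cxcl11. PBS replicate 3 exceeded the mean of the other PBS arrays by 1.47 for Cxcl9, 1.27 for Cxcl10 and 0.43 for Cxcl11. Without that array the folds were 12.4, 13.9 and 12.1. Con A replicate 1 lay below the mean of the other Con A arrays by a log2 difference of -1.22 for Cxcl11, of -0.49 for Cxcl9 and of -0.23 for Cxcl10. The Con A arrays spanned 1.38 for Cxcl11, against 0.50 for Cxcl9 and 0.24 for Cxcl10.

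Whether the ligands rose by unequal amounts was tested on the within-array differences of each pair. Cxcl10 exceeded Cxcl9 by 0.67, 0.40 and 0.40 in the Con A arrays and by 0.42, 0.24 and 0.13 in the PBS arrays, so its rise was larger by 0.23, and the groups overlapped. The rise of Cxcl11 was larger than that of Cxcl9 by 0.31 and larger than that of Cxcl10 by 0.09. An exact two-sided permutation test gave p = 0.3 for Cxcl10 against Cxcl9, 0.6 for Cxcl11 against Cxcl9 and 0.8 for Cxcl11 against Cxcl10 (0.8 each after adjustment over the 3 pairs), where 3 arrays against 3 cannot give less than 0.1, so none of these pairs could have passed 0.05. After a further quantile normalization the Cxcl10 and Cxcl9 value was 0.24 and its groups separated, at that smallest p of 0.1 by the exact permutation test. With 1 array left out the first of these values ranged from 0.14 to 0.31, the second from -0.03 to 0.63 and the third from -0.20 to 0.42. The first kept its sign each time, and the other two did not.

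Cxcr3 (probe set 10606058) encodes the receptor that all 3 ligands share. It stood at 6.72, 7.18 and 6.85 in the Con A arrays, against 6.92, 7.21 and 6.96 in the PBS arrays, and the groups overlapped. The mean was 6.92 ± 0.24 after Con A and 7.03 ± 0.15 after PBS, a difference of -0.11 (95% interval -0.43 to 0.20, limma adjusted p = 0.668). The interval reaches a log2 difference of -0.43 on one side and 0.20 on the other, and changes within it cannot be told from none here.

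The values carry no detection calls, so the level of Cxcr3 was set beside genes that these cells are not known to use. The 1027 measured olfactory receptor genes had medians between 4.79 and 4.88 over the 6 arrays, with 95th percentiles of 6.57 to 6.66 in the Con A arrays and 6.52 to 6.60 in the PBS arrays. Cxcr3 lay above 96.0 to 97.6% of these genes in the Con A arrays and above 96.9 to 98.7% in the PBS arrays, and above 38.4 to 47.8% and 43.3 to 49.8% of all tested genes. On every array it lay above the 95th percentile of the olfactory genes and below the median of all tested genes. Probe sets differ in their response, so this position is a description and does not establish that the sorted cells express the receptor.

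**Figure D2:**
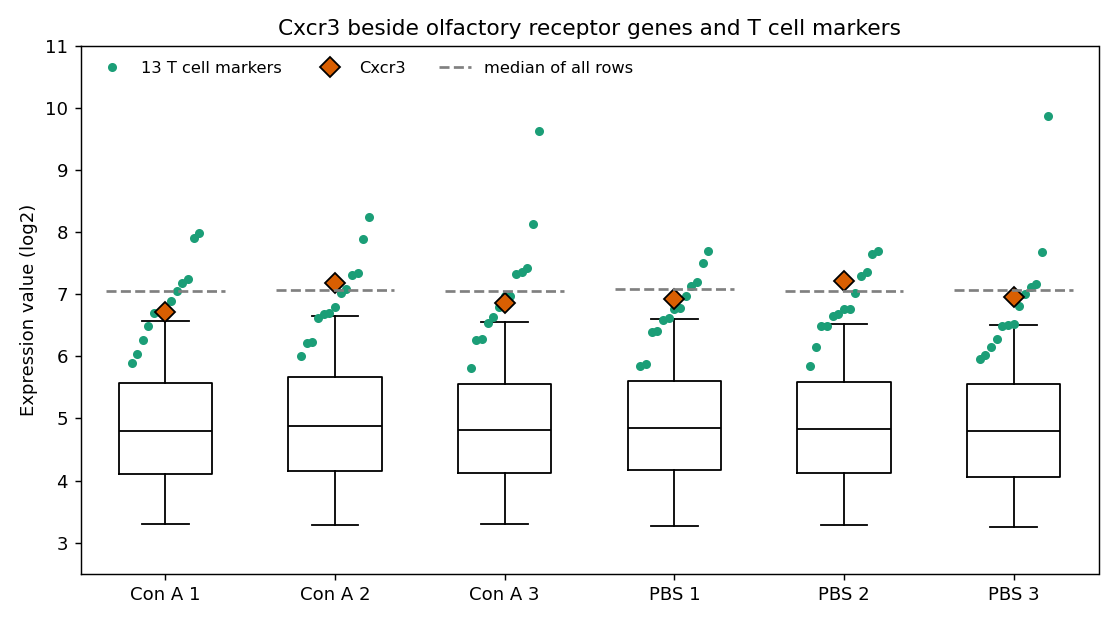
Log2 expression of Cxcr3 (diamonds) and 13 T cell markers (dots) on each array, beside boxes of 1027 olfactory receptor genes (box: quartiles, whiskers: 5th to 95th percentile) and the median of all rows (dashed). Cxcr3 lies above the upper whisker and within the range of the T cell markers on all 6 arrays.

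T cells and NK cells are the usual carriers of CXCR3, and their markers were read in the same arrays. Of 13 measured T cell markers, 0 rose and 0 fell, where 4.59% of all tested genes rose and 7.22% fell. Counts of 0 in so short a list lie near those shares. The median difference of the 13 was 0.10 against 0.02 over all tested genes. In 4 of them all Con A arrays lay above all PBS arrays, an order found in 14.4% of all tested genes. The mean level of the 13 ranged from 6.86 to 7.09 in the Con A arrays and from 6.75 to 6.89 in the PBS arrays. The CD3 chain genes Cd3d, Cd3e and Cd3g, which define T cells, differed by -0.10, 0.08 and -0.11 on the log2 scale. Cd3d at 6.25 ± 0.02 after Con A and 6.35 ± 0.18 after PBS, and Cd3g at 5.90 ± 0.09 and 6.01 ± 0.14, lay below the olfactory 95th percentile, while Cd3e at 7.29 ± 0.09 and 7.21 ± 0.09 lay above it. The costimulatory receptor gene Cd28 and the IL-7 receptor gene Il7r had the largest differences, 0.30 and 0.46, and neither passed (limma adjusted p = 0.0757 and 0.766). The difference of Il7r was -0.04 without Con A replicate 3 and -0.13 without PBS replicate 1.

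Of 11 NK cell markers, 1 rose and 0 fell, against 4.59% and 7.22% of all tested genes. Gzmb, which encodes granzyme B, stood at 10.75, 9.65 and 11.01 in the Con A arrays against 8.56, 8.56 and 9.04 in the PBS arrays, a rise of 1.75 (limma adjusted p = 0.0152). Without Con A replicate 1 its adjusted p was 0.0528 and without PBS replicate 1 it was 0.0737. The mean of the list ranged from 7.51 to 8.61 in the Con A arrays and from 7.74 to 8.17 in the PBS arrays. Con A replicate 2 had the lowest list mean of all 6 arrays. Without it 5 NK markers rose in place of 1, and 563 of the 19938 tested genes rose in place of 915. All 3 ligands were highest in that array, though Cxcl9 and Cxcl10 were nearly as high in Con A replicate 3. A link between the NK markers and the ligands was not tested.

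Ackr3 encodes an atypical receptor that binds CXCL11 and CXCL12 and does not signal through G proteins. It stood at 6.07, 6.02 and 6.04 in the Con A arrays against 6.22, 5.91 and 6.19 in the PBS arrays, a difference of -0.07 (95% interval -0.29 to 0.16), with 82.7 to 89.4% of the olfactory genes below it over the 6 arrays. Of the 10 measured genes for other receptors of these ligands and for chemokine receptor signalling, 0 rose and 2 fell, where 7.22% of all tested genes fell. Arrb1, which encodes the receptor-uncoupling protein beta-arrestin 1, fell by 0.86 (11.10 ± 0.05 after Con A, 11.96 ± 0.15 after PBS, limma adjusted p = 0.00191). Grk5, a receptor kinase gene, fell by 0.44 (limma adjusted p = 0.0334), and it kept that call without PBS replicate 2 but lost it without any other single array, at adjusted p between 0.051 and 0.116. Gnai2 and Gnai3, which encode the inhibitory G protein subunits that CXCR3 couples to, differed by -0.06 and 0.08.

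The other CXC chemokines that lack the ELR motif share this feature with the CXCR3 ligands. Of this group 0 of 5 members passed the test, where 11.8% of all tested genes did. Pf4, which encodes platelet factor 4, stood at 6.25, 8.43 and 7.33 in the Con A arrays against 6.12, 6.24 and 6.64 in the PBS arrays, a difference of 1.00 (limma adjusted p = 0.257, and 0.036 without Con A replicate 1). Cxcl13, the B cell attractant, differed by 0.88 (limma adjusted p = 0.299). Cxcl12 and Cxcl14 differed by 0.09 and -0.01, and Cxcl16 by 0.06 with a 95% interval of -1.61 to 1.73.

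Genes of the interferon and NF-kB pathways, which act upstream of the ligands, were read from lists that also hold inhibitors of these pathways. Of 21 measured interferon ligands, receptors, kinases, transcription factors and inhibitors, 10 rose and 0 fell, against 4.59% and 7.22% of all tested genes. The median difference was 0.39 beside 0.02 over all tested genes. The genes that rose were Ifng, Irf1, Irf2, Irf7, Irf8, Irf9, Stat2, Stat3, Socs1 and Ptpn2. The count was 5 without Con A replicate 2, 6 without Con A replicate 3 and 4 without PBS replicate 1. It was 6 without PBS replicate 2 and 2 by the ordinary linear model. Of all tested genes 915 rose in the main fit, and 563, 559, 458, 778 and 290 in these, in the same order.

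Ifng, which encodes interferon-gamma, stood at 8.78, 8.44 and 9.30 in the Con A arrays, against 7.37, 7.41 and 7.87 in the PBS arrays. It rose by 1.29 (95% interval 0.75 to 1.82, limma adjusted p = 0.0118), a call lost when PBS replicate 1 was left out (adjusted p = 0.062). Its groups did not overlap, and among the Con A arrays it was lowest in replicate 2. The ligands were highest in that array, but Cxcl9 (13.263 against 13.243) and Cxcl10 (13.662 against 13.645) hardly differed there from Con A replicate 3. A link between Ifng and the ligands across arrays was not tested. Ifnb1, which encodes interferon-beta, differed by 0.13 (95% interval -0.10 to 0.36), at 5.81 ± 0.13 after Con A and 5.69 ± 0.12 after PBS.

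Irf1, the transcription factor that binds ISRE sites after interferon-gamma, stood at 12.83, 13.07 and 13.00 in the Con A arrays, against 11.53, 11.35 and 11.63 in the PBS arrays, and rose by 1.47 (limma adjusted p = 0.000604). Its separate groups had little spread, and PBS replicate 3 lay close to the other PBS arrays. Socs1, the feedback inhibitor of JAK kinases, rose by 3.23 and Stat2 by 1.21. The interferon-gamma receptor genes Ifngr1 and Ifngr2 differed by 0.07 and -0.20 and the kinase genes Jak1 and Jak2 by -0.17 and 0.33, and none of them passed (limma adjusted p from 0.137 to 0.656).

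Of 12 measured genes of the NF-kB and TNF arm, 6 rose and 0 fell, against 4.59% and 7.22% of all tested genes. The median difference of the 12 was 0.56. The 6 were Tnfaip3, the NF-kB inhibitor A20, at 1.74, the subunit genes Relb at 1.205, Nfkb2 at 1.03 and Rela at 0.42, Tnf at 1.15 and the inhibitor gene Nfkbia at 0.95. The count was 0 by the ordinary linear model, where Tnf had an adjusted p of 0.0829 and Relb of 0.0851. The count was 3 without Con A replicate 2 and 3 without PBS replicate 1. Nfkb2 was among those lost, with adjusted p of 0.0531 and 0.0541 by limma. Of all tested genes 915 rose in the main fit and 290 by the ordinary linear model. Without Con A replicate 2 it was 563 of them, and without PBS replicate 1 it was 458. Tnf stood at 11.78, 12.28 and 12.16 in the Con A arrays, against 10.82, 10.73 and 11.23 in the PBS arrays, with PBS replicate 3 again the highest of its group.

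**Figure D3:**
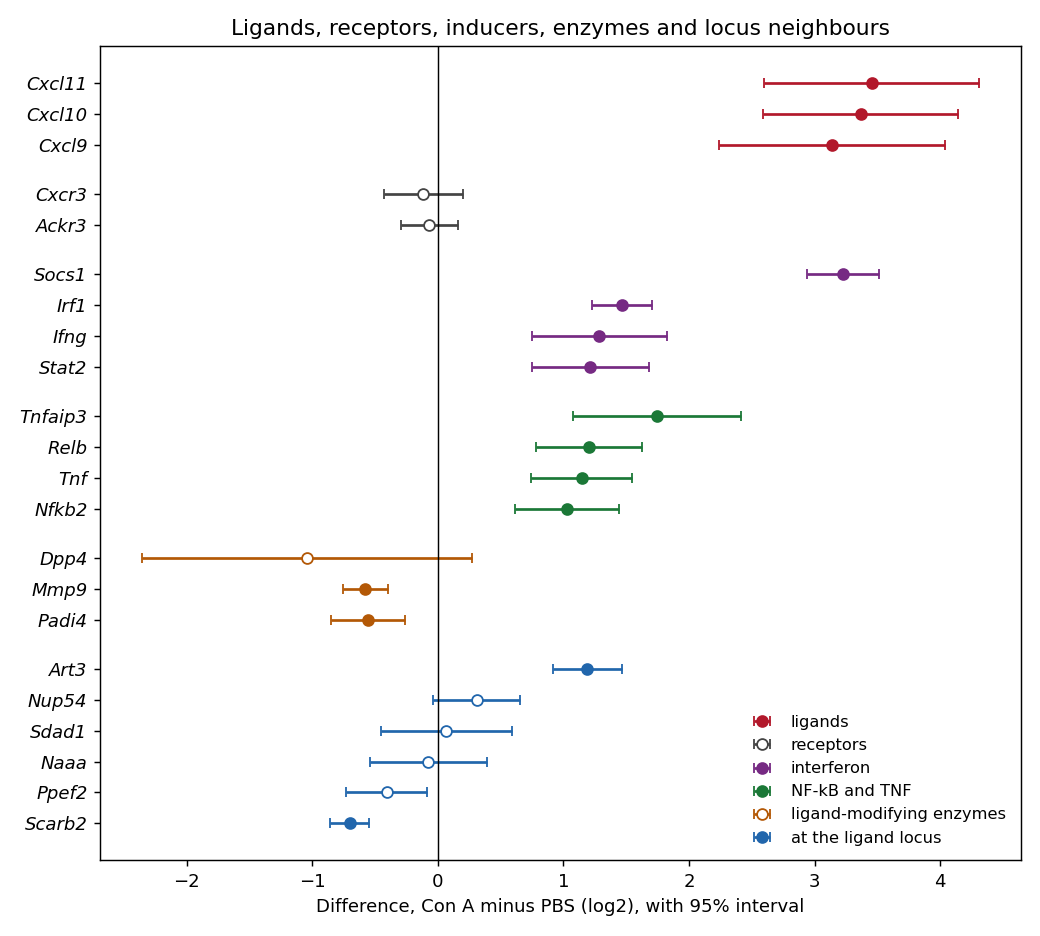
Differences in log2 expression, Con A minus PBS, with 95% intervals of the limma fit (3 arrays per group); filled points passed an adjusted p of 0.05 and open points did not. The ligands lie above 3, and the intervals of Cxcr3 and Ackr3 include 0. The interferon and NF-kB genes shown lie between 1.03 and 3.23. They are the 4 of each list with the largest differences past the test, and 11 of 21 and 6 of 12 list members did not pass.

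Of 8 measured genes for enzymes that trim or modify the secreted ligands, 0 rose and 2 fell, where 4.59% of all tested genes rose and 7.22% fell. The count that fell was 1 by the ordinary linear model and 1 without any single array other than PBS replicate 3. Of all tested genes, 381 fell by the ordinary linear model and 682 to 973 in those leave-one-out fits, in place of 1440. Mmp9, a secreted gelatinase known to cleave CXCR3 ligands, fell by 0.58, at 12.98 ± 0.03 after Con A and 13.56 ± 0.10 after PBS (limma adjusted p = 0.00401). Padi4, an arginine deiminase gene of granulocytes, fell by 0.55 (limma adjusted p = 0.0299), and it kept that call without PBS replicate 3 but lost it without any other single array, at adjusted p between 0.066 and 0.117. Dpp4, whose surface protease removes the N-terminal dipeptide of all 3 ligands and is known to weaken their signalling through CXCR3, stood at 6.58, 7.19 and 7.93 in the Con A arrays, against 7.61, 7.63 and 9.59 in the PBS arrays. Its groups overlapped, and its difference of -1.04 (95% interval -2.36 to 0.28) did not pass (limma adjusted p = 0.319). With 1 array left out the difference of Dpp4 ranged from -1.39 to -0.38, the smaller size without PBS replicate 3.

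Among 7 genes for factors that control the decay of AU-rich messages, 0 rose and 1 fell, against 4.59% and 7.22% of all tested genes. Zfp36l2 fell by 0.94, at 10.96 ± 0.16 after Con A and 11.90 ± 0.13 after PBS (limma adjusted p = 0.00219). Zfp36, which encodes tristetraprolin, differed by 0.17 and Zc3h12a, which encodes Regnase-1, by 0.53 (limma adjusted p = 0.0799). Without PBS replicate 3 the count of these 7 genes that rose was 1, and 1114 of all tested genes rose in place of 915.

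The ligand genes lie side by side on mouse chromosome 5, and their neighbours were read to see how far the rise extended. Art3, an ADP-ribosyltransferase gene whose span in RefSeq covers Cxcl10 and Cxcl11, stood at 6.88, 6.83 and 6.92 in the Con A arrays against 5.50, 5.61 and 5.94 in the PBS arrays. It rose by 1.19 (limma adjusted p = 0.0015), with all 6 values below the array medians, and because it overlaps the ligands, a contribution of their transcripts to its probes was not tested. Of the other 5 measured neighbours, 0 rose and 1 fell, against 4.59% and 7.22% of all tested genes. Scarb2, a lysosomal membrane protein gene, fell by 0.70, while Nup54, Sdad1, Naaa and Ppef2 differed by 0.31, 0.07, -0.08 and -0.41 and did not pass. Without PBS replicate 3 Nup54 passed at 0.48 (limma adjusted p = 0.0191) and Naaa stood at 0.11. Naaa stood at 0.09 without Con A replicate 1. Sdad1 was at -0.07 without Con A replicate 3, -0.01 without PBS replicate 1 and -0.09 without PBS replicate 2.

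The genes whose pattern over the 6 arrays was most like the ligands were found by the root mean square distance between each gene's deviations from its own mean and the average deviations of the 3 ligands. The nearest were Gbp4 at 0.20, Slc7a2 at 0.24, Gbp5 at 0.24, Cd69 at 0.29, AW112010 at 0.33, Socs1 at 0.35, Ccl24 at 0.36 and Gbp7 at 0.37, in log2 units, against a median of 1.71 over 18355 genes. The ligands themselves lay at 0.16 (Cxcl10), 0.19 (Cxcl9) and 0.31 (Cxcl11) from their average. Gbp4, Gbp5 and Gbp7 encode interferon-induced guanylate-binding GTPases, Slc7a2 an arginine transporter, Cd69 an early activation antigen and Ccl24 an eosinophil attractant. Gbp4 stood at 11.02, 11.44 and 11.44 in the Con A arrays, against 7.37, 7.30 and 8.78 in the PBS arrays, with PBS replicate 3 high as for Cxcl9. Socs1, at 11.19, 11.46 and 11.39 against 7.91, 8.14 and 8.30, was also highest in PBS replicate 3, with a narrower spread. The distance favours genes with rises of similar size and a like order of arrays. A high PBS replicate 3 in these genes therefore follows in part from how they were chosen. PBS replicate 3 was the highest PBS array in 32.8% of all tested genes. The distance says nothing of shared control.

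**Figure D4:**
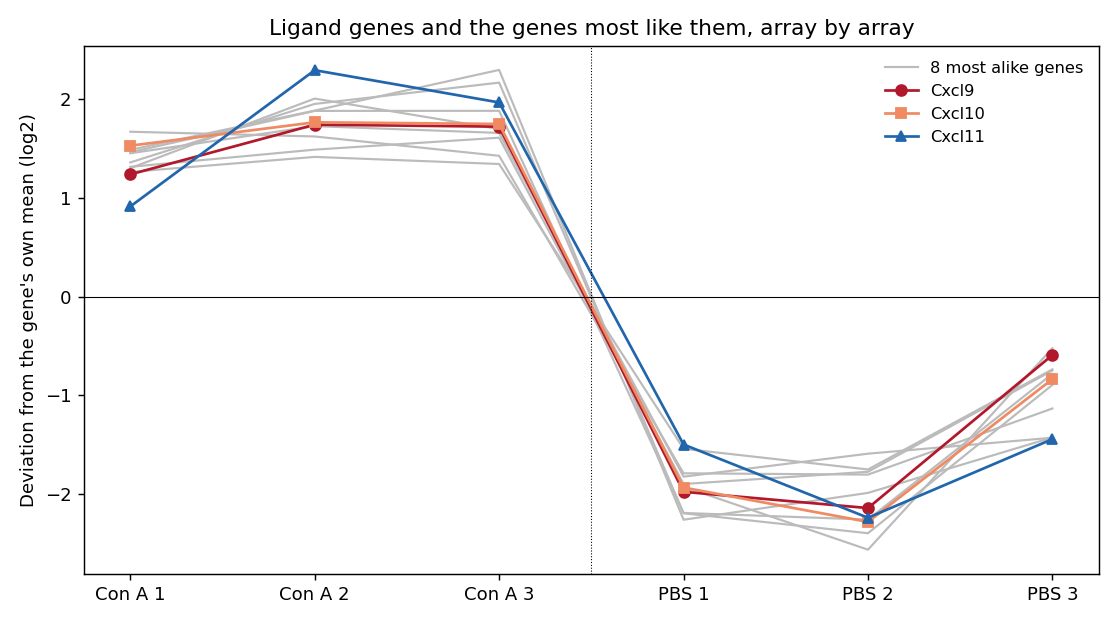
Deviation of each gene's log2 value from its own mean on each array, for Cxcl9, Cxcl10 and Cxcl11 (coloured) and the 8 genes most like them (grey), Con A left and PBS right. All lines are above 0 in the Con A arrays and below it in the PBS arrays, and among the PBS arrays all of them are highest in replicate 3. The 8 genes were chosen for closeness to the ligands on these same arrays, so this likeness follows in part from the choice.

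What the sort held was read from marker lists. The gate markers were high in every array: Itgam, which encodes CD11b, averaged 12.77 ± 0.04 after Con A and 12.92 ± 0.15 after PBS, and Ly6g, a target of the Gr-1 antibody, 13.51 ± 0.05 and 13.59 ± 0.09. Of 9 measured granulocytic and monocytic markers 1 rose and 1 fell, against 4.59% and 7.22% of all tested genes. Cd14, the endotoxin co-receptor gene, rose by 0.82 (limma adjusted p = 0.017), a call lost without Con A replicate 2 (0.0787), Con A replicate 3 (0.065) or PBS replicate 1 (0.0777). Ccr2, the chemokine receptor gene of inflammatory monocytes, fell by 2.00 (limma adjusted p = 0.00177). Of these 9 markers 2 fell without PBS replicate 2, where 912 of all tested genes fell in place of 1440.

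Markers of other liver cells that can make these chemokines were read in the same way, and their part in the ligand values was not tested. The mean of 9 Kupffer cell markers was 7.66 to 9.42 in the Con A arrays and 7.64 to 8.10 in the PBS arrays. Where 11.8% of all tested genes passed the test, 0 of these markers did. The highest value was in Con A replicate 2, where Vsig4, a complement receptor gene of Kupffer cells, stood at 10.12, and their largest differences were those of Vsig4 at 1.23 and Cd5l at 0.96. Without Con A replicate 2 they were 0.41 for Vsig4 and 0.11 for Cd5l. The mean of 9 hepatocyte markers ranged from 7.14 to 7.82 in the Con A arrays, with the highest value again in replicate 2, and from 7.11 to 7.17 in the PBS arrays. None of them passed (0 of 9, against 11.8% of all tested genes). Alb differed by 0.86 and Fgb by 0.52, and by 0.15 and 0.015 without Con A replicate 2. Without Con A replicate 2 the ligands stood at 8.29-fold for Cxcl9, 10.02-fold for Cxcl10 and 8.99-fold for Cxcl11.

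Among the 12 markers of endothelial and stellate cells 1 rose and 1 fell, against 4.59% and 7.22% of all tested genes. The list means were 6.91 to 7.26 in the Con A arrays and 6.85 to 6.96 in the PBS arrays. Pecam1, which leukocytes also express, rose by 1.55. Lyve1, a hyaluronan receptor gene, fell by 1.33 (limma adjusted p = 0.0111), a call lost without Con A replicate 2 (0.0558) or PBS replicate 1 (0.0598). The means of 6 B cell markers were 6.81 to 6.84 in the Con A arrays and 6.90 to 7.22 in the PBS arrays. Where 7.22% of all tested genes fell, 0 of these markers rose and 1 fell. That gene, Ms4a1, which encodes CD20, fell by 0.45 (limma adjusted p = 0.0282). It lost the call without Con A replicate 1 (0.0835), Con A replicate 2 (0.104), PBS replicate 1 (0.106) or PBS replicate 2 (0.0832). B cell markers that fell numbered 3 without PBS replicate 3, where 1651 of all tested genes fell in place of 1440. Of 6 markers of plasmacytoid dendritic cells, which also carry CXCR3, 0 rose and 0 fell, against 4.59% and 7.22% of all tested genes. The list means were 7.01 to 7.16 in the Con A arrays and 6.98 to 7.15 in the PBS arrays. The largest differences there were those of Bst2 at 0.27, which passed without PBS replicate 3 (limma adjusted p = 0.0439), and Tcf4 at -0.26.

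**Figure D5:**
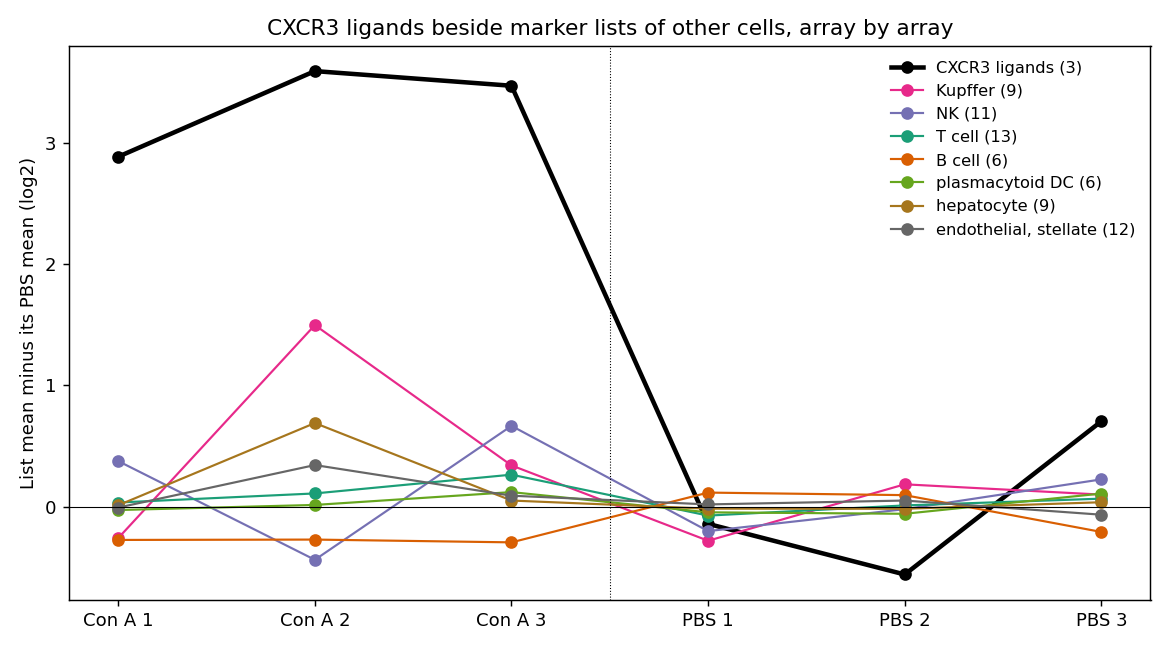
Mean log2 level of the 3 CXCR3 ligands and of 7 marker lists on each array, each minus its own mean over the PBS arrays, Con A left and PBS right; the number of measured genes is in brackets. The ligand line stands near 3 or above in every Con A array, while Kupffer and hepatocyte markers peak in Con A replicate 2 and NK markers are lowest there.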

How the data were processed

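Each of the 6 arrays measured RNA of 1 sample, 3 after Con A and 3 after PBS, and the array titles gave the groups. The authors deposited log2 values of Affymetrix arrays. The submitters' processing notes name RMA and Partek, with no version, and no genome build of the array was found in the labels. Total RNA went through whole-transcriptome amplification and biotin labelling, per the labels. RMA compresses small and large values, and precision is limited by the number of arrays.

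Of 35556 rows, 21789 carried exactly 1 gene symbol, 1621 several and 12146 none. Symbols were checked through Entrez numbers against RefSeq names of GRCm38.p6 (0 changed, 91 rows not matched). The row with the highest mean stood for each of 999 genes with several rows, which left 19938 genes. Array medians were 7.05 to 7.08, and 0 pairs of arrays were identical.

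The group difference was fitted without covariates in limma 3.58.1 (R 4.3.3; two-sided moderated tests), with Benjamini-Hochberg adjustment over all 19938 genes. The fit was tested on simulated data. Python 3.11.15 was used for the pairs of ligands (exact permutation), motif searches and plots. Named genes were the members, up to 4 members past the threshold of each of 14 lists (or the 2 largest differences where none passed), Ifng, Irf1, Ackr3 and Dpp4, the neighbours of the ligand locus and the 8 genes nearest in pattern; genes beyond these were named for their role. Of 152 list entries, 142 had a tested gene, and the other 10 are not analysed here. The members and lists were chosen with earlier results of these data known. The alternatives covered the variance model, array weights, normalization, a filter on dim genes, the choice of row, the replicate number as a block and each array left out.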

Additional observations from a re-analysis of the deposited data

How the results depend on the processing

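The rises of Cxcl9, Cxcl10 and Cxcl11 kept their direction in all 17 alternatives and their call in all but the ordinary linear model, where Cxcl9 (3.14, adjusted p = 0.0679) and Cxcl11 (3.45, adjusted p = 0.0541) missed the threshold. Cxcr3 passed in 0 of its 16 alternatives, with differences from -0.24 to -0.02 with 1 array left out, and it fell outside the filter on dim genes. The number of genes past the threshold was 2355, with 1 array left out between 1140 (PBS replicate 1) and 2765 (PBS replicate 3), 1272 without Con A replicate 2, 1480 without Con A replicate 3 and 671 by the ordinary linear model. The cause of these changes in count was not tested. Each fit with 1 array left out also held fewer arrays. Correlations of deviations between arrays of the same replicate number were 0.23, -0.17 and 0.56. Those between arrays of different number ranged from -0.54 to 0.54, so the numbers were not taken to pair the samples. With the replicate block the count was 2539. The ligands kept their calls (limma adjusted p = 0.00135, 0.00104 and 0.00215 for Cxcl9, Cxcl10 and Cxcl11). The pairs of ligands then gave p = 0.25 to 1 by exact permutation of signs. With 3 pairs of arrays that test cannot give less than 0.25, the value of Cxcl10 against Cxcl9. With the block Grk5 lost its call (0.0574), and Dpp4 (0.0222), Ppef2 (0.0398) and Vsig4 (0.0432) gained one. With 1 array left out Il7r ranged from -0.13 to 1.31, Naaa from -0.21 to 0.11 and Sdad1 from -0.094 to 0.31, and Naaa was at 0.00045 with array weights. By the ordinary linear model 0 sort, NK, B cell, endothelial and stellate markers passed. Counts over gene lists under these settings were added after seeing the data.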

Other observations

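A few genes of the lists above differed more between replicate 3 and the other arrays of a group than between treatments. They were picked after their values were seen. Cxcl16, the membrane-bound chemokine of macrophages and dendritic cells, stood at 8.32, 9.004 and 10.20 in Con A replicates 1, 2 and 3, against 8.25, 8.39 and 10.70 in the PBS replicates. Mmp12, the macrophage elastase gene, stood at 7.97, 8.49 and 10.12 in the Con A arrays, against 8.25, 8.36 and 10.68 in the PBS arrays. Anpep, which encodes aminopeptidase N, stood at 7.52, 7.47 and 8.66 in the Con A arrays, against 7.27, 7.62 and 9.51 in the PBS arrays. In these genes the third replicate was the highest of both groups. Cxcl9, Cxcl10 and Cxcl11 were highest in replicate 3 only among the PBS arrays. In the Con A arrays, however, replicate 3 nearly equalled replicate 2 for Cxcl9 (13.243 and 13.263) and Cxcl10 (13.645 and 13.662).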
